A study of Mus musculus with 12 samples.

Results

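The comparison of macrophages after 24 h of monophosphoryl lipid A (MPLA) with macrophages not exposed to it is described here across all genes and transcript classes, as the late response while MPLA was still present. Its members are all 21923 rows of 1 of the 3 comparison tables, which together list 67064 rows, and no row was selected by its value. The cells were bone marrow-derived macrophages of wild-type C57BL/6 males aged 8 to 16 weeks, grown from femoral marrow for 7 days with 10% fetal bovine serum and 10 ng/mL of the macrophage growth factor M-CSF, which stayed in the medium; no source used here gives the dose of MPLA. Control libraries numbered 3 and 24 h libraries 3, out of 12 in the series. The remaining libraries, from cells after 4 h of MPLA and from cells taken 3 days after priming had ended, enter only where values at other times are set beside those at 24 h. The labels do not state whether libraries of a group came from separate mice or cultures, so each p-value reflects only how these libraries scatter, and that scatter may be technical. Polyadenylated RNA was sequenced from bulk cultures, in which fewer cells of a type and less RNA per cell cannot be told apart. Every log2 value and p-value below is taken from the authors' deposited table, turned to MPLA over control, and is their DESeq2 value unless edgeR is named. The table used here holds fold changes and p-values but no level per library, so depth and the spread of single libraries are unknown.

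MPLA is a detoxified derivative of bacterial lipid A and binds Toll-like receptor 4 (Tlr4) with its partner Ly96. The receptor signals through Myd88 to NF-kappaB and MAP kinases, and through Ticam1 to Irf3 and interferon beta, which then acts on the cells through Stat2 and Irf9. In macrophages the early burst of cytokine transcripts is followed by feedback inhibitors, interferon-response genes and a change of metabolism, and M-CSF, the growth factor in the medium, keeps unstimulated marrow macrophages dividing.

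A gene was called when its adjusted p-value from DESeq2 was under 0.05. Of 16442 genes with an adjusted p-value in the authors' deposited table, 5331 were called higher after MPLA (32.4% of those tested) and 5293 lower (32.2%). At least 2-fold changes made up 2106 of the rises (12.8% of those tested) and 2699 of the falls (16.4%). Large rises outnumbered large falls, with 357 rises and 242 falls of at least 16-fold, and 147 rises and 38 falls of at least 64-fold. The median gene lay at log2 -0.05, and the middle 50% of genes lay between -0.81 and 0.57. Among the called genes, 150 rises were listed at 0 in the controls and 171 falls were listed at 0 after MPLA; they enter these counts with the fitted value, and no fold is given for any of them.

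The authors' edgeR fold changes in the deposited table lay lower than the DESeq2 columns by a median of 0.41 on the log2 scale. By edgeR 3467 of the same tested genes were higher (21.1%) and 8875 lower (54.0%). All 5293 falls called by DESeq2 were also falls by edgeR. Of the 5331 rises, 3425 were rises by edgeR too, 800 were called lower and 1106 were not called. No called DESeq2 change above 0.41 turned its sign in the edgeR columns, and the named rises that did turn are marked. Higher calls made up 50.2% of all calls by DESeq2, 27.9% by edgeR, 38.5% by baySeq and 39.4% where all 3 methods called the gene. Centring on the cytosolic ribosomal protein genes gave 58%. That centring kept every called rise and dropped called falls smaller than the median of those genes (-0.55). No gene was called anew, so the share of higher calls could only grow.

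**Figure D1:**
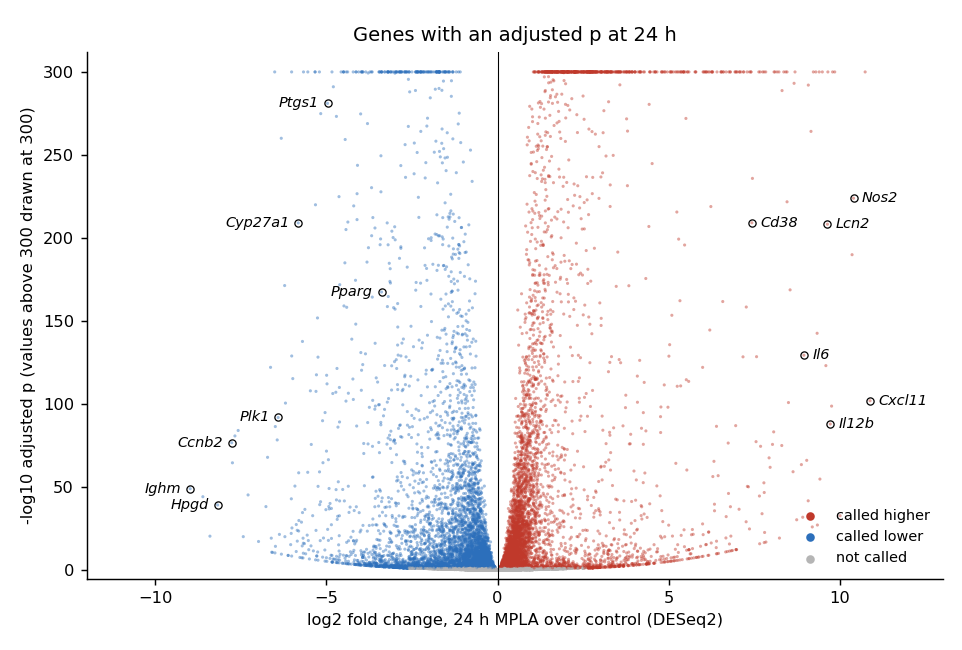
Each point is 1 of the 16442 tested genes, with its log2 fold change of 24 h MPLA over control on the x axis and -log10 of the DESeq2 adjusted p on the y axis (values above 300 drawn at 300). Red points were called higher, blue lower, and grey were not called; the circled rises reach a log2 of 10.88 for Cxcl11 and the circled falls -8.98 for Ighm.

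Chemokines, the secreted proteins that direct leukocyte traffic, held some of the largest rises. By the authors' deposited values, 11 of 13 tested CC chemokines rose and 1 fell, with a median of 4.73 against -0.05 for all tested genes. Ccl5, which attracts T cells and monocytes, rose to log2 9.85, and Ccl12, Ccl7, Ccl2 and Ccl8, which attract monocytes, rose by 8.66, 8.16, 7.83 and 7.29. Ccl22, a ligand of the T cell receptor Ccr4, rose by 8.49 ± 0.39 (the standard error implied by the deposited p-value). Ccl6 fell by 1.29. Among CXC and CX3C chemokines 7 of 12 tested rose and 4 fell. Those that rose most were the Cxcr3 ligands Cxcl11 (10.88 ± 0.50), Cxcl9 (9.15 ± 0.26) and Cxcl10 (8.36). The neutrophil attractants Cxcl3, Cxcl2 and Cxcl1 rose by 6.08, 3.59 and 2.65. The platelet chemokine Pf4 fell by 1.33. A 41.7% share of the exonic bases of Cxcl11 lies under exons of the opposite strand, and no source used here says whether reads were counted by strand.

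Interleukin transcripts rose with few exceptions, 20 of 25 tested members of that list against 3 that fell. Il12b, the subunit shared by interleukins 12 and 23, rose by 9.72 ± 0.48, and Il6 by 8.95 ± 0.37. Il1a and Il1b rose by 9.65 and 7.07. Their natural brake, the receptor antagonist Il1rn, rose by 6.75, and Il18bp, the soluble trap of interleukin 18, by 2.91. Il10, the main anti-inflammatory interleukin of macrophages, rose by 2.62 ± 0.25. Il12a was listed at 0 in the controls and called higher. The receptor chain Il6ra fell by 2.33 and Il16 by 2.96. Of 24 tested TNF superfamily ligands and receptors 19 rose and 5 fell. Tnf itself rose by 5.36, Cd40 by 6.59 and Tnfsf10 by 5.33, while Tnfsf14, Tnfsf13 and Tnfsf12 fell by 3.13, 2.56 and 1.38. Tnfsf13 and Tnfsf12 have 57.3% and 46.8% of their 50-base transcript windows in common with other genes.

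Growth factor genes were split, with 9 of 20 tested rising (45%) and 9 falling (45%), against 32.4% and 32.2% of all tested genes. By edgeR 9 rose and 10 fell, against 21.1% and 54.0%. Inhba, which encodes an activin subunit, rose by 8.73 ± 0.74. The granulocyte factor Csf3 and the factor Csf2 were listed at 0 in the controls and called higher. The receptor for the M-CSF in the medium, Csf1r, fell by 1.52, whereas its ligand gene Csf1 rose by 2.05. Igf1 fell by 2.97. Receptors for chemoattractants were split too, with 8 of 19 tested rising (42.1%) and 9 falling (47.4%), by edgeR as well. The formyl peptide receptors Fpr1 and Fpr2 rose by 7.67 and 6.98, with 31.5% of the windows of Fpr2 shared by other genes. Cxcr4, which holds cells in marrow, fell by 5.33, Cx3cr1 by 2.70 and S1pr1 by 2.13. Ccr7, the receptor that guides cells to lymph nodes, was listed at 0 in the controls and called higher.

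Interferon-response genes rose as groups. All 18 interferon-inducible GTPases tested rose, between 1.95 for Gbp8 and 9.22 for Gbp4, with a median of 5.77. These proteins attack the membranes around intracellular microbes. Of 34 tested antiviral effectors 30 rose and 3 fell. Oasl1 rose by 9.29, the membrane-curving enzyme gene Rsad2 (viperin) by 7.36, the ubiquitin-like Isg15 by 6.95 and Ifit1, which binds foreign RNA caps, by 6.54. Ifitm1 and Ifitm2 fell by 2.07 and 0.65. All 8 tested Schlafen genes rose, with Slfn4 at 10.73 and Slfn1 at 10.35. Several of these genes have close copies. The share of 50-base exonic windows that another gene's transcripts also hold is 84.1% for Gbp10, 81.2% for Tgtp1, 70.7% for Gbp6 and 10.8% for Slfn4, and the values of such genes are uncertain, since reads could be divided between copies.

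Promoter stretches of interferon-response genes are shown because that family shares a known regulatory sequence, the interferon-stimulated response element. Its core, searched on both strands, was GAAA, any pair of bases, then GAAA, and capitals mark each match, overlapping matches merged. The sequences are the 120 bases just before the RefSeq start in GRCm38.p6, read in the direction of the gene. For Cxcl10, whose match lies further from the start, 220 bases are shown. They are examples, picked by hand. The stretches lie at chr19:34640769-34640888 (plus strand) for Ifit1, chr4:156200819-156200938 (minus) for Isg15, chr12:26456453-26456572 (minus) for Rsad2, chr3:142620543-142620662 (plus) for Gbp2 and chr5:92348890-92349109 (minus) for Cxcl10.
Ifit1: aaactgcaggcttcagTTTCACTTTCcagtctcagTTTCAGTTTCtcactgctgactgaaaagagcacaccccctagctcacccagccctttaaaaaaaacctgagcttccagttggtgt
Isg15: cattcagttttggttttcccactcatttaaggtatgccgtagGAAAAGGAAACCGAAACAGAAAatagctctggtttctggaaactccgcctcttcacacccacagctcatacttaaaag
Rsad2: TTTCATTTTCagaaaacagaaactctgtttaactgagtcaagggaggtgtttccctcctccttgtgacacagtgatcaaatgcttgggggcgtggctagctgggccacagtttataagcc
Gbp2: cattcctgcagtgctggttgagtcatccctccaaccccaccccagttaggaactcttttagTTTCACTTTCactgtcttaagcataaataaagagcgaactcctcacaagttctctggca
Cxcl10: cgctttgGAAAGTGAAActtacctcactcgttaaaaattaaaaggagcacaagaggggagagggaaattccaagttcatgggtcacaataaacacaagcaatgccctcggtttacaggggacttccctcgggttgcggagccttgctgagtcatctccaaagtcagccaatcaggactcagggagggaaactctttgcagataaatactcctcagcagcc
Ifit1 holds 2 matches and Isg15 3 that overlap each other. Every gene shown holds a match, against 17 of 32 windows of the antiviral effectors as a list. In the authors' deposited table Gbp2 rose by 6.07.

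Interferon genes and their signalling components are upstream of these effectors. Of 30 tested interferon factors and signalling genes 21 rose and 5 fell, with 17 and 11 by edgeR. Ifnb1, interferon beta, was still higher at 24 h (5.65 ± 0.86), and Irf7, which amplifies its production, rose by 6.19. Stat2, which carries the signal to the nucleus, rose by 3.29. The inhibitors Usp18, Socs1 and Socs3 rose by 6.27, 6.20 and 6.10. Irf4 fell by 3.46 ± 0.42, Ifngr1, a chain of the interferon gamma receptor, by 1.36 and Irf8 by 0.91.

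Adaptors and inhibitors of the receptor pathway rose far more often than they fell. By the authors' deposited values, 33 of 37 tested adaptors, kinases and inhibitors rose and 3 fell (28 and 7 by edgeR). Traf1 rose by 6.93, and the NF-kappaB inhibitors Tnfaip3, Nfkbia and Irak3 by 3.18, 3.11 and 3.01. The kinases Irak4 and Irak1 fell by 0.58 and 0.52. Tlr4 itself fell by 0.38, whereas its partners Cd14 and Ly96 rose by 1.05 and 0.73. Among 18 Toll-like receptors and co-receptors 11 rose and 5 fell. Tlr1 and Tlr3 rose by 3.34 and 2.86, and the flagellin receptor Tlr5 fell by 4.50 ± 0.72. Tlr1 shares 15.4% of its windows with other genes.

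Peptide presentation rose throughout its MHC class I branch. All 21 tested class I genes rose, between 1.31 for H2-D1 and 8.69 for H2-Q6, with the transporters Tap1 and Tap2 at 3.05 and 2.53. The class I activator Nlrc5 rose by 2.90 and the immunoproteasome subunit Psmb8 by 2.90. H2-Q6 and H2-Q7 share 32% and 26.4% of their windows with other genes. Of 34 standard proteasome subunits, which make up the cell's main protein-degrading particle, 33 rose and none fell by DESeq2, and by edgeR 32 were higher and 1 lower. Psma6 rose by 2.05 and Psmd8, the smallest rise called, by 0.48 (but -0.03 in the unscaled ratio), while Psmd9 lay at -0.12. Of 12 tested class II genes 9 rose and 2 fell (7 and 3 by edgeR). H2-Ab1, H2-Aa, H2-Eb1 and the invariant chain Cd74 rose by 3.73, 3.18, 3.07 and 2.96, and their activator Ciita by 2.16. H2-DMb2 and the thiol reductase Ifi30 each fell by 0.84.

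Ligands that stimulate or restrain T cells mostly rose, 16 of 21 against 5 that fell. The NAD-consuming surface enzyme Cd38 rose by 7.42 ± 0.24, Cd69 by 6.16, Cd86 by 2.78, and the checkpoint ligands Cd274 and Pdcd1lg2 by 5.55 and 3.94. Cd80, a costimulator like Cd86, was called higher at 0.42 but lay at -0.09 in the unscaled ratio. Cd83 fell by 1.36, Havcr2 by 2.29 and Cd276 by 1.08.

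Secreted defence proteins ranged widely. Of 20 tested acute-phase and defence genes 12 rose and 3 fell. Saa3 rose by 9.78, the siderophore-binding Lcn2 by 9.63 ± 0.31 and the copper oxidase gene Cp by 4.61. Lysozyme genes Lyz2 and Lyz1 fell by 1.50 and 1.19, and fibronectin Fn1 by 2.59. Complement genes were opposed within the list, with 11 of 21 rising (52.4%) and 9 falling (42.9%), against 32.4% and 32.2% of all tested genes. By edgeR 9 rose and 12 fell. Cfb and C3 of the alternative pathway rose by 8.31 ± 0.23 and 5.79, and Serping1 by 3.92. Cfb shares 73% of its windows with another gene's transcripts, so reads could be divided between them.

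The enzymes that make small effector molecules changed in opposite directions within 1 pathway. Nos2, the inducible nitric oxide synthase, rose by 10.39 ± 0.32, and Irg1, which makes itaconate, by 9.39. The arginine carrier Slc7a2 and the arginine-recycling enzyme Ass1 rose by 6.11 and 3.75. Of 19 tested genes on itaconate, nitric oxide and arginine 13 rose and 3 fell (11 and 5 by edgeR), with Kmo of tryptophan breakdown lower by 2.24. Among 18 tested prostaglandin and leukotriene genes 7 rose (38.9%) and 9 fell (50%), against 32.4% and 32.2% of all tested genes. Ptgs2 and Ptges, the inducible steps to prostaglandin E2, rose by 9.48 and 6.79. The constitutive Ptgs1 fell by 4.96 ± 0.14 and the prostaglandin-degrading Hpgd by 8.17 ± 0.61. On the leukotriene branch Ltc4s, Alox5 and Alox5ap fell by 3.47, 2.33 and 1.99. Exons of the opposite strand cover 26.4% of Ltc4s.

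Among 25 tested genes of glycolysis and lactate export, 18 were called higher and 7 lower in the authors' deposited table (17 and 7 by edgeR). The glucose carriers Slc2a6 and Slc2a1 rose by 3.76 and 2.21, Pfkfb3, which makes the activator of phosphofructokinase, by 2.96, and the lactate exporter Slc16a3 by 1.34. The isoforms Aldoc and Ldhb fell by 2.95 and 2.74 while Aldoa and Ldha rose by 0.86 and 1.05. Pyruvate entry and the TCA cycle had 14 of 32 genes higher (43.8%) and 14 lower (43.8%), and by edgeR 8 and 19. Over all tested genes 32.4% were higher and 32.2% lower. Mdh2 and Cs rose by 1.07 and 0.81. Idh1, Idh2 and Suclg2 fell by 2.03, 1.68 and 1.47, and the pyruvate dehydrogenase kinase Pdk2 by 3.09 ± 0.14. In the pentose phosphate pathway 4 of 11 rose (36.4%) and 5 fell (45.5%), with 2 and 6 by edgeR. G6pdx, the entry enzyme, rose by 0.70. Pgd and Rpia were called higher at 0.37 and 0.41, and lay at -0.04 and -0.000226 by edgeR.

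Nuclear genes of the respiratory chain mostly moved by small amounts, and the balance of their calls differed between the tools. For complex I, 16 of 37 were higher and 12 lower by DESeq2 but 1 and 25 by edgeR, with medians of 0.05 and -0.36 beside -0.05 and -0.46 for all tested genes. For complexes III to V, 18 of 35 were higher and 6 lower by DESeq2 but 7 and 24 by edgeR. Ndufs4 rose by 0.88 in complex I, and Cycs (cytochrome c) and Cox5a by 3.15 and 1.44. Cycs shares 25.9% of its windows with other genes. Genes encoded in mitochondrial DNA kept their direction by both tools: 9 of 12 tested fell and none rose by DESeq2, and 12 fell by edgeR. The range of called falls ran from 0.41 for mt-Nd6 to 1.43 for mt-Atp6, and mt-Atp6 and mt-Co3 share nearly all windows with other annotated genes. The ribosomal RNA genes mt-Rnr1 and mt-Rnr2 fell by 0.52 and 0.57. Of 21 fatty acid oxidation genes 13 fell and 4 rose (19 and 2 by edgeR). Hadh, Acaa2 and Acadm fell by 1.39, 1.33 and 1.28, and Acsl1, which activates fatty acids, rose by 4.66.

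**Figure D2:**
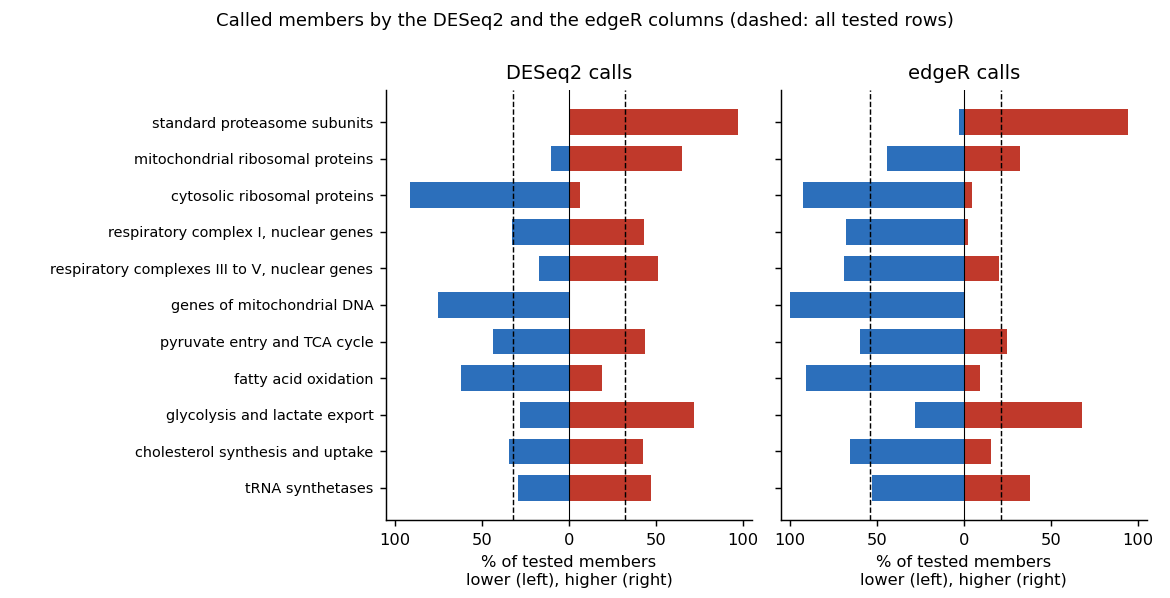
Bars give the percentage of tested members called higher (red, right) and lower (blue, left) in 11 lists, by the DESeq2 columns (left panel) and the edgeR columns (right panel), and dashed lines mark all tested genes. Proteasome subunits stay on the right in both panels (33 and 32 of 34) and mitochondrial DNA genes on the left (9 and 12 of 12). The longer bar changes sides for complex I, complexes III to V, mitochondrial ribosomal proteins, cholesterol synthesis and tRNA synthetases. Pyruvate entry and the TCA cycle go from 14 on each side to 8 higher and 19 lower.

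Sterol and lipid genes fell more often than they rose in the list of cholesterol efflux and nuclear receptors. Of 29 tested efflux and nuclear receptor genes 22 fell and 6 rose. Cyp27a1, which makes 27-hydroxycholesterol, fell by 5.82 ± 0.19, Angptl4 by 6.61 ± 0.71, Pparg, the adipogenic nuclear receptor, by 3.39 ± 0.12 and Apoe by 1.95. Ch25h, which makes 25-hydroxycholesterol, rose by 7.65 ± 0.54 and Nr1h3 (liver X receptor alpha) by 3.30. The efflux carrier Abca1 fell by 0.09, whereas the efflux carrier Abcg1 was called higher at 0.54, and at 0.13 by edgeR. Cholesterol synthesis and uptake had 11 of 26 higher (42.3%) and 9 lower (34.6%) by DESeq2 but 4 and 17 by edgeR. Over all tested genes 32.4% were higher and 32.2% lower by DESeq2.

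Oxidant defence genes mostly rose, 19 of 29 against 5 that fell (17 and 10 by edgeR). Slc7a11, the cystine carrier, rose by 5.04, the mitochondrial dismutase Sod2 by 4.44 and Hmox1 by 2.05. The peroxidases Gpx1 and Gpx4 and catalase Cat fell by 1.75, 0.74 and 1.32. Metal handling was divided, with 10 of 21 rising (47.6%) and 10 falling (47.6%), against 32.4% and 32.2% of all tested genes. By edgeR 9 rose and 10 fell. The iron exporter Slc40a1 (ferroportin) fell by 4.49, the haemoglobin scavenger Cd163 by 5.24 and transferrin Trf by 3.38, while ferritin heavy chain Fth1 rose by 2.73. Metallothioneins Mt1 and Mt2 fell by 2.84 and 3.04. A 73.5% share of Mt2's exonic bases lies under opposite-strand exons, and Trf and Sod2 share 59.4% and 21% of their windows with other genes.

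Uptake receptors moved in both directions. Of 34 tested phagocytic, scavenger and lectin receptors 14 rose (41.2%) and 18 fell (52.9%), against 32.4% and 32.2% of all tested genes. By edgeR 12 rose and 20 fell, against 21.1% and 54.0%. Clec4e (Mincle), Marco, the IgG receptor Fcgr1 and Msr1 rose by 6.54, 4.46, 3.70 and 2.52. The mannose receptor Mrc1 fell by 5.67, Stab2 by 4.99, the apoptotic-cell bridge Gas6 by 4.13, Clec7a by 3.19 and Trem2 by 2.86. Of 36 lysosomal genes 20 fell (55.6%) and 12 rose (33.3%), the rises near the 32.4% of all tested genes. By edgeR 27 fell and 8 rose. The osteoclast pump subunit Atp6v0d2 was lower by 4.42 and the protease gene Ctsc higher by 2.00. Of 29 lineage genes 17 fell (58.6%) and 10 rose (34.5%), the rises again near that share, and by edgeR 20 fell and 8 rose. Cebpa fell by 2.98 and Gpr34 by 7.57 ± 0.39, while Cebpb and Spic rose by 2.63 and 2.44. Alternative activation genes had 7 of 17 higher (41.2%) and 7 lower (41.2%), and 6 and 8 by edgeR. Ccl22 and Arg1 rose by 8.49 and 2.14, and Egr2, Clec10a and Mrc1 fell by 4.12, 5.00 and 5.67. Osteoclast genes had 5 of 14 higher (35.7%) and 4 lower (28.6%), near the 32.4% and 32.2% of all tested genes, but 5 and 6 by edgeR. Car2 and Acp5 were higher by 5.69 and 3.77 and Itgb3 lower by 3.94.

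**Figure D3:**
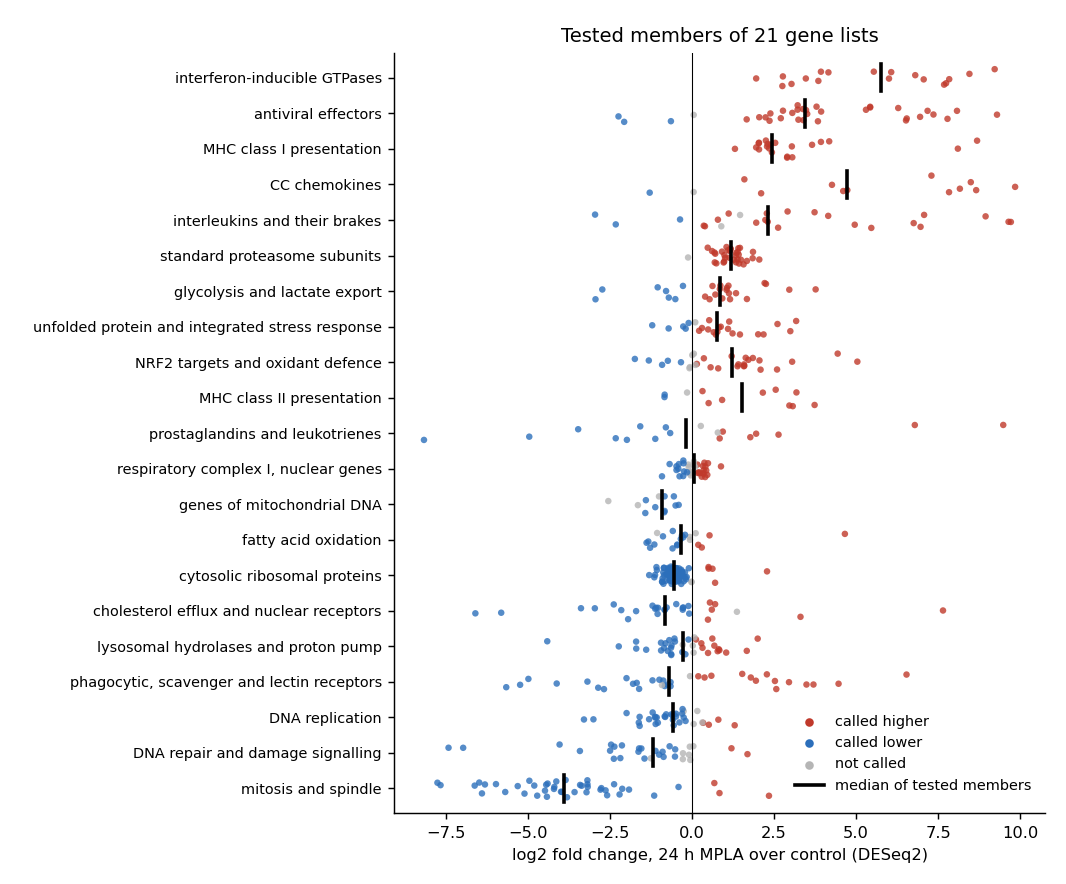
Each point is a tested member of 1 of 21 gene lists at its DESeq2 log2 fold change of 24 h MPLA over control, red if called higher, blue if called lower and grey if not called, with the list's median as a black bar. Interferon-inducible GTPases lie highest (median 5.77) and mitosis genes lowest (median -3.91), and prostaglandin genes span both sides, from Hpgd at -8.17 to Ptgs2 at 9.48.

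The labelled cell type was checked against its markers. Of 12 tested macrophage markers none was listed at 0 in either group. Fcgr1, Adgre1, Fcer1g, Cd14 and Spi1 rose by 3.70, 2.15, 1.79, 1.05 and 0.62, Cd68, Tyrobp, Lyz2, Csf1r and Mertk fell by 0.66, 1.00, 1.50, 1.52 and 1.69, and Itgam was called higher at 0.31 but lay at -0.10 by edgeR. Among 17 B cell markers 8 were not listed, Pax5 among them, and 7 were tested. Of these 1 rose and 2 fell, with the antibody chain gene Ighm lower by 8.98 ± 0.60 and Cd79b by 1.54. Of 18 T and NK cell markers 10 were not listed and 5 were tested, of which 1 rose and 2 fell, each by at least 2-fold. Of 16 neutrophil markers 7 were tested, of which 2 rose and 2 fell. At least 2-fold changes were 1 rise, Camp at 3.49, and 1 fall. Among 12 dendritic cell markers 9 were tested. Of these 5 rose, including Fscn1 by 6.73 and Xcr1 by 3.08. Another 2 fell, Itgax by 0.74 and the other by at least 2-fold. The 3 tested erythroid markers held 1 fall (Epor, 5.60) and no rise. The 3 tested mast cell markers held 2 falls (Kit, 4.30, and Cpa3, listed at 0 after MPLA). Of 15 stromal and endothelial markers 11 were tested, of which 6 rose and 1 fell, each by at least 2-fold (6 and 4 called by edgeR). Dcn and Lum were listed at 0 in the controls, Kdr, Pecam1 and Cdh5 rose by 3.87, 2.96 and 2.10, and the collagen genes Col1a1 and Col1a2 lay at -1.90 and -1.88 without a call. The part of other cell types in the results above was not tested, since no level per library is at hand.

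Death and stress genes rose in part. Of 20 inflammasome and lytic death genes 14 rose and 5 fell. The sensors Zbp1 and Nlrp3 rose by 5.43 and 2.07, the necroptosis effector Mlkl by 3.78 and the pore-former Gsdmd by 1.89, while Nlrp1b and Txnip fell by 2.86 and 2.65. In the Bcl2 family 10 of 18 rose and 5 fell (7 and 7 by edgeR). The survival gene Bcl2a1a rose by 8.54 ± 0.31, with 69% of its windows shared by its copies, and Bcl2l1 by 1.75. The death-promoting Bmf, Bbc3 and Bcl2l11 fell by 4.46, 1.68 and 1.15. Of 24 genes of the unfolded protein and integrated stress response 18 rose and 5 fell (16 and 8 by edgeR), with the amino acid stress genes Chac1, Trib3, Ddit3, Asns and Atf4 higher by 3.17, 2.99, 2.60, 2.18 and 2.01. The endoplasmic reticulum kinase gene Eif2ak3 fell by 1.22.

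Nutrient and oxygen sensing genes gave a balance that moved with the processing. Of 29 mTOR pathway genes 11 rose (37.9%) and 15 fell (51.7%), against 32.4% and 32.2% of all tested genes, with 6 and 20 by edgeR. With falls smaller than the cytosolic ribosomal protein median dropped, 11 rises and 9 falls were left. The inhibitors Sesn1, Deptor and Ddit4 fell by 4.21, 3.77 and 2.00, and Rictor rose by 1.38. Of 20 hypoxia genes 9 rose (45%) and 7 fell (35%), but 6 rose and 12 fell by edgeR. Hif1a rose by 1.04, whereas Epas1, its paralogue, fell by 4.61 and Ndrg1 by 3.97.

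Cell division genes fell by the largest median of the 56 lists. Of 44 genes of mitosis and the spindle 41 fell and 3 rose, by DESeq2 and by edgeR, with a median of -3.91. Ccnb2, a cyclin that starts mitosis, fell by 7.76 ± 0.41, Aspm of the spindle pole by 7.67 ± 0.40, Cdc20, the activator of the anaphase-promoting complex, by 6.49 ± 0.33, Plk1 by 6.41 ± 0.31, the centromere histone Cenpa by 6.32 ± 0.18 and Ube2c by 5.98 ± 0.26. The exceptions were Pttg1, Plk4 and Tpx2, which rose by 2.34, 0.83 and 0.68. DNA replication fell by less, with 28 of 36 lower and 4 higher (31 and 2 by edgeR) and a median of -0.59. Rrm2 and Tk1, which supply nucleotides, fell by 3.30 ± 0.14 and 3.01, while the helicase subunits Mcm2, Mcm3, Mcm4 and Mcm5 fell by 0.49, 0.29, 0.39 and 0.59, and Mcm6 was called higher at 0.33 but lay at -0.08 by edgeR. Of 30 DNA repair genes 21 fell and 2 rose, with Pif1 and Ankle1 lower by 7.42 ± 0.78 and 6.98 ± 0.79. Of 31 G1 regulators 12 were higher (38.7%) and 14 lower (45.2%), against 32.4% and 32.2% of all tested genes, with 8 and 20 by edgeR. The cyclin gene Ccnd2 rose by 4.45, the inhibitors Cdkn2c and Cdkn1b fell by 3.13 and 1.65, and E2f7 fell by 4.62. Of 22 tested histone genes 7 fell (31.8%, against 32.2% of all tested genes) and 2 rose (9.09%, against 32.4%). By edgeR 11 fell and 2 rose, against 54.0% and 21.1% of all tested genes. The libraries were made from polyadenylated RNA.

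Promoters of mitotic genes are shown for a pair of sequences long tied to that class, the CCAAT box, read CCAAT or ATTGG by strand, and the cell cycle homology region, TTTGAA or TTCAAA. Capitals mark every match of either in the bases before the RefSeq start (GRCm38.p6). The stretches lie at chr9:70421555-70421674 (minus) for Ccnb2, chr4:118437344-118437463 (minus) for Cdc20, chr2:164769809-164769928 (plus) for Ube2c and chr5:30666766-30666885 (plus) for Cenpa.
Ccnb2: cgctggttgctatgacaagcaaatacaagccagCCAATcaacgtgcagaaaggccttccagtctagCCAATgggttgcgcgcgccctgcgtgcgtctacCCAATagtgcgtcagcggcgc
Cdc20: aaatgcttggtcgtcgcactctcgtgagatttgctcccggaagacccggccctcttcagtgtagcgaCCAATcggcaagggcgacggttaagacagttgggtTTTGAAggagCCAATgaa
Ube2c: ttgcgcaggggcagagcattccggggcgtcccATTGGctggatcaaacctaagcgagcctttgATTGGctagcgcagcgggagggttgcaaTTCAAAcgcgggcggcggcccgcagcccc
Cenpa: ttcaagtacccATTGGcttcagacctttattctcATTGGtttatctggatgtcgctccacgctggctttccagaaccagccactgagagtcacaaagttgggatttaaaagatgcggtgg
Ccnb2 holds 3 CCAAT boxes and the other stretches 2 each, and Cdc20 and Ube2c each hold 1 cell cycle homology region here.

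Motif shares were counted over promoter windows from 250 bases before to 50 after each start, on both strands, for the 11036 of 16442 tested genes with a RefSeq promoter. The interferon-stimulated response element core was in 3.44% of all 32851 windows in the RefSeq table, 3.32% of the 13979 windows of tested genes, 2.33% of those of genes not called, 2.65% of genes called lower, 4.69% of genes called higher and 14.4% of genes at least 16-fold higher. It was in 17 of 32 windows of antiviral effectors (53.1%) and 9 of 11 of the GTPases (81.8%). The CCAAT box was in 37.4% of all windows, 37.4% of windows of tested genes, 29 of 39 mitotic windows (74.4%) and 45.2% of windows of genes at least 16-fold lower. Other lists held it too, with 19 of 27 windows of cholesterol synthesis (70.4%) and 13 of 19 of MHC class I genes (68.4%), and it was in 20 of 34 DNA replication windows (58.8%). The cell cycle homology region was in 17.9% of all windows, 12.4% of windows of tested genes and 27 of 39 mitotic windows (69.2%). It was also in 5 of 11 windows of the GTPases (45.5%), which rose, and in 4 of 34 DNA replication windows (11.8%). Genes at least 16-fold higher and at least 16-fold lower held it in 20.5% and 21% of windows. The E2F core TTTGGCGC was in 0.514% of all windows, 0.88% of those of tested genes and 5 of 34 DNA replication windows (14.7%). The kappaB core (GGGA, any pair of bases, then TTCC) was in 1.47% of all windows, 1.55% of those of tested genes and 5.03% of windows of genes at least 16-fold higher. The antioxidant element core TGACNNNGC was in 12.4% of all windows, 14.4% of those of tested genes and 8 of 29 windows of NRF2 and oxidant defence genes (27.6%), and the E-box CACGTG in 7.15% of all windows, 9.66% of those of tested genes and 6 of 27 of cholesterol synthesis genes (22.2%). Of the 9 motifs searched the cyclic AMP element TGACGTCA and the sterol element TCACCCCAC were searched the same way, and matches of different motifs may overlap. These are descriptions of letters in the windows, and no binding was measured.

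**Figure D4:**
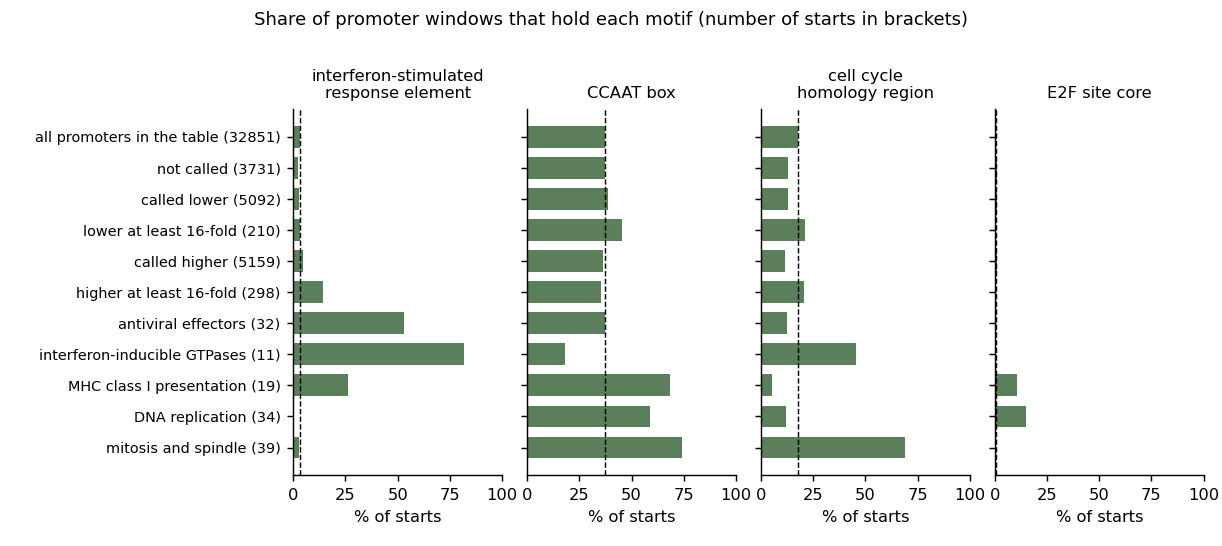
Bars give the percentage of promoter windows that hold each of 4 motifs on either strand, for all promoters, for genes by call and for 5 gene lists, with the number of starts in brackets and a dashed line at the share of all promoters. The interferon element stands out in the GTPases and antiviral effectors (81.8% and 53.1%). The cell cycle homology region is most frequent in mitosis genes (69.2%), followed by the GTPases (45.5%, 11 windows). The CCAAT box is frequent in mitosis, MHC class I and DNA replication genes (74.4%, 68.4% and 58.8%).

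Genes of protein synthesis moved by small amounts in opposite directions. Of 81 cytosolic ribosomal proteins 74 fell and 5 rose (75 and 4 by edgeR), with a median of -0.55. Rpl10a and Rps21 fell most, by 1.31 ± 0.04 and 1.15. Rpl39l and Rpl24 rose by 2.28 and 0.62. Many of these genes have processed copies, and Rpl24 and Rpl10a share 51.8% and 20.8% of their windows with other genes. Of 77 mitochondrial ribosomal proteins 50 rose and 8 fell by DESeq2, but 25 rose and 34 fell by edgeR, with medians of 0.34 and -0.07. Mrpl52 rose by 2.06. Of 34 tRNA synthetases 16 rose and 10 fell, but 13 and 18 by edgeR. The cytosolic Aars, Cars and Rars rose by 2.28, 1.63 and 1.60, and the mitochondrial Vars2 and Nars2 fell by 0.94 and 0.89.

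Large symbol-defined families were counted whole. Over all tested genes 32.4% were higher and 32.2% lower by DESeq2, and 21.1% and 54.0% by edgeR. Zinc finger protein genes fell more than they rose, 133 of 319 against 64 (238 and 30 by edgeR), from Zfp651 at -5.51 to Zfp811 at 7.26. Solute carriers had 82 of 235 higher (34.9%) and 88 lower (37.4%), and 59 and 131 by edgeR, near the shares of all tested genes. With falls smaller than the cytosolic ribosomal protein median dropped, 24 more solute carriers were higher than lower, a rule that can only move the balance upward. The sodium-proton exchanger Slc9a9 fell by 5.54, and the copper carrier Slc31a2 rose by 3.31. TRIM genes had 21 of 48 higher and 13 lower, but 17 and 26 by edgeR, with Trim30b, Trim30c and Trim30d higher by 5.76, 4.89 and 3.30. Dusp phosphatases, which switch off MAP kinases, had 8 of 21 higher (38.1%) and 6 lower (28.6%), near those shares, but 7 and 10 by edgeR. Dusp16 and Dusp2 were higher by 2.47 and 2.14. Among receptors named Gpr, 11 of 37 rose and 16 fell. Gpr55 and Gpr84 rose by 7.05 and 4.56 and Gpr183 fell by 3.78. Opposite-strand exons cover 39.5% of Gpr84. Of 16 purine receptors and enzymes 6 rose (37.5%) and 6 fell (37.5%), near the shares of all tested genes, with 6 and 9 by edgeR. The adenosine receptors Adora2a and Adora2b were higher by 9.75 ± 0.46 and 4.28 and the ATP-degrading Entpd1 lower by 2.66. Of 12 tested olfactory receptor genes 5 rose and 2 fell, Olfr56 and Olfr433 by 6.99 and 6.77 among the rises.

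Transcript classes were called at unequal rates. Protein-coding genes were called in 73.7% of 13148 tested rows, with 4960 higher and 4736 lower. The 3294 tested rows of all other biotypes, which are mostly noncoding RNAs and pseudogenes but include antigen receptor segments and polymorphic pseudogenes, were called in 28.2%, with 371 higher (11.3%) and 557 lower (16.9%), against 32.4% and 32.2% over all tested rows. Long intergenic RNAs (lincRNA) leaned to falls, 162 against 83 rises of 594 tested. Processed transcripts did the same, 79 against 42 of 322. Antisense RNAs had 97 falls and 78 rises of 577 tested. Processed pseudogenes were called in 14.8% of 904 and small nucleolar RNAs in 4.94% of 81. Unprocessed pseudogenes leaned to rises, 21 against 10 of 73, with a median of 0.56. By edgeR 24 were higher and 25 lower, against 21.1% and 54.0% of all tested genes. Of the rows of other biotypes 48.9% had an adjusted p-value, so the rates are of rows that passed DESeq2's filter on low values.

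**Figure D5:**
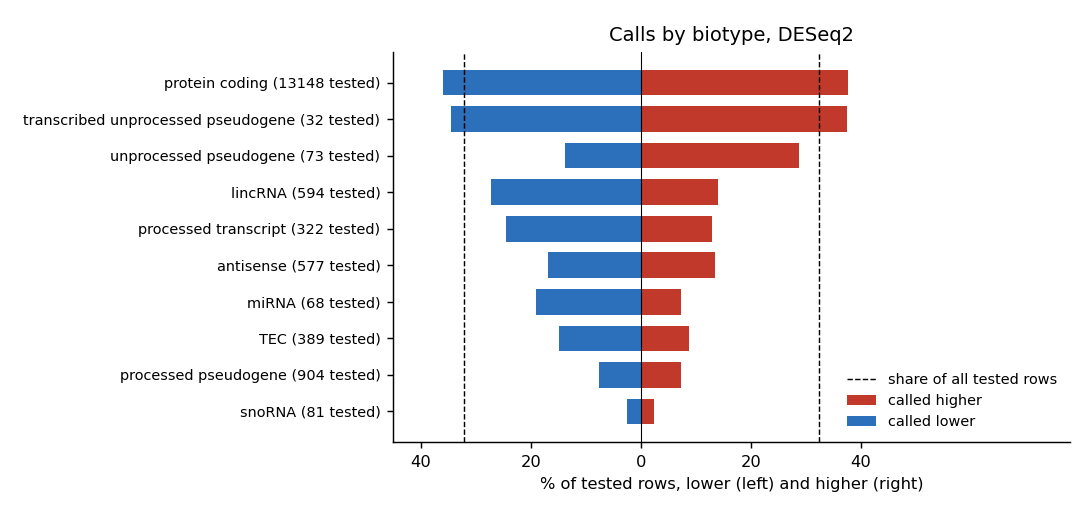
Bars give the percentage of tested rows called higher (red, right) and lower (blue, left) for 10 biotypes as the table names them, with the number tested in brackets and dashed lines at the shares of all tested rows (32.4% and 32.2%). Protein-coding genes and transcribed unprocessed pseudogenes reach past both lines, lincRNAs lean left, and small nucleolar RNAs are rarely called.

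Large changes were also found in single rows outside the protein-coding class. The lincRNAs Gm26667 and Ptgs2os2 rose by 7.96 ± 0.47 and 7.26 ± 0.63, and Ptgs2os2 lies at chr1:150159043-150164948 on the minus strand in GRCm38. The lincRNAs 2610035D17Rik and 5830416P10Rik fell by 6.00 ± 0.56 and 5.04 ± 0.69. The antisense RNAs Peak1os and Gm16685 rose by 6.74 ± 0.46 and 6.68 ± 0.55, and F630028O10Rik fell by 3.68 ± 0.11. The pseudogene BC023105 rose by 8.87 ± 0.52, with 14.7% of its windows shared. Of 68 tested miRNA host loci 5 rose and 13 fell. Mir27b and Mir3074-1, at chr13:63300712-63300784 (plus strand) and chr13:63301199-63301283 (minus), fell by 2.70 ± 0.86 and 2.52 ± 0.46. Libraries of polyadenylated RNA do not measure mature miRNAs, and these rows count reads over the hairpin locus.

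Rows for antigen receptor segments, picked out after their values were seen, mostly fell. Of 9 tested T cell receptor variable segments 7 were lower and none higher, with a median of -3.64. Trav14n-3, Trav13-4-dv7 and Trav13n-4 fell by 6.49 ± 0.81, 5.80 ± 0.50 and 5.38 ± 0.75. The antibody segment Ighv1-58 rose by 1.90 ± 0.71. The T cell markers Cd3e, Cd3g and Trac were not among the rows of the authors' deposited table, and Cd3d was listed at 0 in the controls and not tested. What the Trav rows share with the marker values was not tested. Among 13 tested polymorphic pseudogenes 7 rose and 3 fell. The rises include the antiviral Oas1b and the class I genes H2-Q5 and H2-T10, at 3.57 ± 0.10, 5.29 ± 0.17 and 4.11.

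Adjusted p-values of 445 rises and 136 falls were stored as 0, below the smallest number the table holds. The 12 largest rises and 12 largest falls among these tied genes are the best determined changes by the rule used here, and some are given next. The values at the other times are set beside them; the 3 comparisons share the same control libraries, each table was normalised alone, and no difference between times was tested. Ptgs2 and Cxcl10 had 9.48 and 8.36 at 24 h, 12.15 and 10.87 at 4 h, and 3.51 and 2.44 at 3 d after priming. Saa3 and H2-Q6 had 9.78 and 8.69 at 24 h, 5.40 and 3.79 at 4 h, and 8.22 and 6.67 after priming. The falls Mrc1 and Slc9a9 had -5.67 and -5.54 at 24 h, and -0.60 and -0.62 at 4 h. Cxcr4 and Slc40a1 had -5.33 and -4.49 at 24 h, and -6.27 and -5.96 at 4 h. Stmn1, a microtubule regulator of dividing cells, had -4.50 at 24 h and -0.31 at 4 h. Of mitosis genes outside those 24, Ccnb2 had -7.76 at 24 h and -0.65 at 4 h, Aspm -7.67 and -4.29, Cdc20 -6.49 and -3.55, and Plk1 -6.41 and -2.64. St6gal1, a sialic acid transferase, had -6.51 at 24 h and -3.24 at 4 h.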

How the data were processed

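RNA-seq libraries of control and 24 h MPLA macrophages, 3 each, were compared through 1 table. Per the submitters' processing notes, the authors used TopHat2, HTSeq, bcl2fastq, DESeq, DESeq2 and edgeR (no versions given) with build mm10; counting settings, use of strand, annotation release and library depth are not given in the sources used here. Per the file headers, the authors gave each gene log2 fold changes from DESeq2 and edgeR, an unscaled log2 ratio, p-values and adjusted p-values. Per the file headers, the authors also gave a baySeq score per gene, 1 minus a likelihood, with its adjusted form, and the rank by each tool as a score. The authors' log2 values have controls on top of the ratio and were turned in sign here, on the group order of the comparison and on the values of genes that lipid A is known to induce.

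A gene was called at an adjusted p-value from the authors' DESeq2 columns under 0.05; NA was kept as not tested. A test on counts could not be run, since the table holds none. The standard error after ± is the log2 fold change divided by the normal deviate of the deposited p-value, taken as a two-sided Wald p-value. It is not defined where that p-value is stored as 0, and such log2 values stand without it. Many other log2 values also stand without it though it is defined, so a bare value is not marked as precise. Examples are Cxcl3, Serping1, Alox5 and mt-Atp6, with standard errors of 0.73, 0.98, 0.80 and 0.65. This calculation of the standard error was checked on simulated data.

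The 45 function lists, 11 families by symbol and 8 cell type lists, and the comparison itself, were chosen with earlier results of these data known. Lists are described by counts and medians beside all tested genes, without a set test. Named genes were the 12 at least 2-fold changes in each direction with the smallest adjusted p-value, ties at 0 ordered by size, up to 5 called members per list and direction, up to 3 noncoding rows per biotype and direction, and members described for their role, added after their values were seen. Alternatives were the authors' deposited edgeR columns, the unscaled ratio, adjustment over all rows, baySeq and calls by all methods. Others were an adjusted p-value under 0.01, a 2-fold minimum and centring on ribosomal protein genes. That centring kept every called rise and dropped called falls smaller than the ribosomal protein median of -0.55, without new calls. It was applied to the lists after seeing the data. Coordinates and shared windows come from GENCODE M21 on GRCm38, the assembly mm10 names, and promoters from RefSeq on GRCm38.p6. Python 3.11.15, pandas 2.3.3 and scipy 1.17.1 were used. Some genes are not reported here.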

Additional observations from a re-analysis of the deposited data

How the results depend on the processing

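No paired analysis was possible because the table holds no values per library; leaving out replicates was not run for the same reason. Against 5331 genes called higher and 5293 lower, the edgeR columns called 3551 and 9154 over all listed rows, all 3 methods together called 3418 higher, and a 2-fold minimum left 2106 and 2699; adjustment over all rows, a threshold of 0.01 and the remaining settings stayed within 1.5 times. Lists with more rises than falls numbered 32 of 56, and 21 by edgeR. The balance of higher minus lower members turned by edgeR to -3 for complement, -24 for complex I, -17 for complexes III to V, -13 for cholesterol synthesis, -6 for hypoxia genes, -1 for osteoclast genes, -9 for mitochondrial ribosomal proteins, -5 for tRNA synthetases, -9 for TRIM genes and -3 for Dusp genes. With all 3 methods it turned to -11 for complex I, -5 for cholesterol synthesis and -1 for hypoxia genes. Ribosomal centring, which could only drop falls, turned it to 2 for the mTOR pathway and 24 for solute carriers. Falls among rows that are not protein coding numbered 1150 by edgeR against 557, and 13.8% of all such rows listed were called against 28.2% of those tested. The unscaled ratio lay lower than DESeq2 by a median of 0.51; of 671 named genes, those listed at 0 in a group left out there, 564 moved by over 1 standard error or have none, 71 by less, and 16 turned. By edgeR 7 turned: by edgeR and in the unscaled ratio, in that order, Rpia lay at -0.000226 and -0.10, Pgd at -0.041 and -0.14, Ndufs3 at -0.0097 and -0.11, Acadl at -0.12 and -0.22, Slc25a20 at -0.23 and -0.32, Mcm6 at -0.079 and -0.17, and Itgam at -0.10 and -0.21. In the unscaled ratio alone Ndufa10 lay at -0.031, Ndufb6 at -0.051, Ndufab1 at -0.079, Fdft1 at -0.031, Psmd8 at -0.034, Cd80 at -0.090, Rfc3 at -0.0041, Rps24 at -0.0062 and Rpl7l1 at -0.012. The share of windows with the interferon element was 7.75% for genes at least 2-fold higher against 4.69% for all rises. The edgeR columns lie lower by a near-constant amount; the cause was not tested. Depth per library is unknown and limits what can be said of weakly expressed genes.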

Other observations

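Outside the gene lists, the largest changes of protein-coding genes listed above 0 in both groups, picked after their values were seen, included secreted and signalling genes. In the authors' deposited table Rasgrp1, an activator of Ras, rose by 9.59 ± 0.40, the endothelial lipase Lipg by 9.41 ± 0.59, the receptor gene Tarm1 by 9.07 ± 0.25, the vasoconstrictor Edn1 by 8.91 ± 0.74, Serpinb2 by 8.63 ± 0.52 and Hdc, which makes histamine, by 8.30 ± 0.45. The uridine-cleaving Upp1 rose by 7.93 ± 0.45, the endocytic receptor Ly75 by 6.44 ± 0.40 and the collagen cross-linker Lox by 6.41. Gprc5c fell by 8.60 ± 0.61, Samd4 by 7.74 ± 0.45, the Wnt pathway gene Frat2 by 7.28 ± 0.51 and Rtn4rl1 by 6.76 ± 0.51. The transcription factor Sox4 fell by 6.37 ± 0.65, the GTPase gene Rhoj by 6.21 ± 0.65, the sialic acid hydroxylase Cmah by 6.19 ± 0.29 and the progenitor and endothelial surface gene Cd34 by 5.81 ± 0.35. Stromal and endothelial markers moved in both directions, as given above, and their part in the values of Edn1, Lox, Rhoj and Cd34 was not tested.

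Some 24 h values stood beside values of the opposite sign at 4 h, with shared controls and no test of the difference. Trib3 had 2.99 at 24 h and -2.07 at 4 h, and Mt2 had -3.04 and 1.34. Lipg had 9.41 at 24 h, 11.71 at 4 h and 1.12 at 3 d after priming, and Gprc5c -8.60, -0.66 and -4.90.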
